A study of Arabidopsis thaliana with 12 samples.

Results

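AT5G39670, AT3G01830 and AT3G47480 are 3 Arabidopsis thaliana genes for calmodulin-like EF-hand proteins, taken here as the probe sets annotated to these loci. Each locus has 1 probe set, so that the 3 genes are 3 of the 13286 genes with a probe set of their own and their probe sets 3 of 22746 tested. The genes were chosen by their measured values in these data, being high in wild type in the cold and low in the mutant. Their cold responses in both genotypes, the difference between the genotypes at 4 °C and the difference of the cold responses therefore stand below as descriptions, without p-values. The gene table at hand lists all 3 by locus alone, without a symbol, and they are called by locus.

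The study compared the mutant sid2-1 with wild type, both of accession Col-0, on 1 Affymetrix array per sample from the RNA of all aerial parts. sid2-1 is defective in an isochorismate synthase that makes most of the salicylic acid of infected leaves. The 4 groups of 3 biological replicates were sid2-1 at 4 °C, wild type (WT) at 4 °C, sid2-1 at 22 °C and WT at 22 °C. The titles of the 3 WT samples at 22 °C carry an added mark that the other titles lack and the labels do not explain. All plants grew in soil at 22 °C with a 12 h day for about 23 days, and the cold groups then spent 3 more weeks at 4 °C, so that cold and age cannot be told apart. The mutant was represented by this allele alone, and the isochorismate synthase transcript was not analysed here, so that the genotype labels were not checked against it.

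EF-hands are helix-loop-helix folds that bind calcium ions. Calmodulin and the calmodulin-like proteins consist of little else, change shape when cytosolic calcium rises and pass the signal on to the enzymes, channels and transcription regulators they bind. Calcium signals are among the early events both of chilling and of the recognition of pathogens in plants, and salicylic acid is the hormone that drives much of the later defence against biotrophic pathogens.

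The arrays were alike in distribution, with medians of 4.39 to 4.47 on the log2 scale. Values below are log2 signals as the authors' GCRMA step left them, and 2.2 is the lowest value of the table, held by 14.7% of all values. The 3 measured leaf markers stood at 12.02 to 14.01 on every array, and the 6 measured root markers at 2.2 to 2.93. Of the flower and pollen markers, TUA1 stood at 7.09 to 8.21 and AT3G01270 at 4.91 to 5.21. Group means of TUA1 were 7.72 in sid2-1 and 8.14 in WT at 4 °C, and 7.39 in sid2-1 and 7.29 in WT at 22 °C, and its part in the results was not tested. In RNA of whole shoots, fewer cells with a transcript and less of it per cell cannot be told apart.

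AT5G39670 was high on the cold wild-type arrays and low on all others. Its log2 signal was 4.49, 4.79 and 4.97 in sid2-1 at 4 °C, against 7.91, 8.56 and 8.51 in WT at 4 °C. At 22 °C it was 4.97, 4.11 and 4.35 in sid2-1, against 4.63, 4.93 and 4.31 in WT. The lowest cold WT array thus lay 2.94 above the highest cold mutant array, while the other 3 groups overlapped one another.

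AT3G01830 was likewise highest on the cold wild-type arrays. It gave 2.99, 3.01 and 2.99 in sid2-1 at 4 °C, against 6.75, 6.3 and 6.12 in WT at 4 °C. At 22 °C it gave 3.13, 2.99 and 2.88 in sid2-1, against 3.15, 3.5 and 2.97 in WT. The value 2.99 recurred on 3 of the 12 arrays and all 9 arrays outside the cold WT group lay between 0.68 and 1.3 above the lowest value of the table. The size of its fold and its small spread in the cold mutant (SD 0.01) therefore depend on the background correction.

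AT3G47480 was again highest in the cold wild type but varied more. It gave 2.89, 5.18 and 3.79 in sid2-1 at 4 °C, against 7.42, 8.43 and 7.06 in WT at 4 °C. At 22 °C it gave 3.42, 2.93 and 3.41 in sid2-1, against 3.35, 4.78 and 3.36 in WT. The cold mutant arrays spread over 2.29 log2 units, but the cold WT arrays all lay above them, by 1.88 or more. Here too the 3 groups other than cold WT overlapped. The sid2-1 arrays at 22 °C lay 0.73 to 1.22 above the lowest value of the table, and WT replicates 1 and 3 at 22 °C 1.15 and 1.16 above it. The lowest cold mutant array lay 0.69 above it. The sizes of the folds of AT3G47480 therefore also depend on the background correction.

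**Figure D1:**
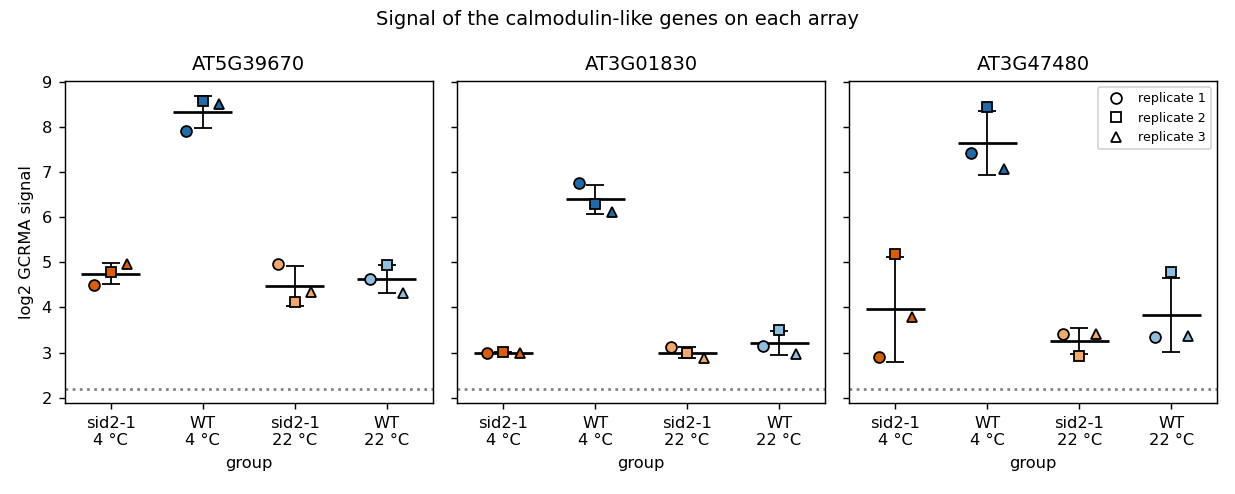
Log2 GCRMA signal (vertical axis) of AT5G39670, AT3G01830 and AT3G47480 on each of the 12 arrays, by group; symbols mark the replicate number, horizontal bars the group mean, whiskers the SD (n = 3) and the dotted line the lowest value of the table, 2.2. In each panel the 3 WT arrays at 4 °C lie above the other 9, and sid2-1 replicate 2 at 4 °C stands at 5.18 for AT3G47480.

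The order of the group means was the same at the top for all 3 genes. AT5G39670 averaged 4.75 ± 0.24 in sid2-1 at 4 °C, 8.33 ± 0.36 in WT at 4 °C, 4.48 ± 0.44 in sid2-1 at 22 °C and 4.62 ± 0.31 in WT at 22 °C (SD, n = 3 each). AT3G01830 averaged 3.00 ± 0.01 in sid2-1 and 6.39 ± 0.32 in WT at 4 °C, and 3.00 ± 0.13 in sid2-1 and 3.21 ± 0.27 in WT at 22 °C (SD, n = 3 each). AT3G47480 averaged 3.95 ± 1.15 in sid2-1 and 7.64 ± 0.71 in WT at 4 °C, and 3.25 ± 0.28 in sid2-1 and 3.83 ± 0.82 in WT at 22 °C (SD, n = 3 each). Only the cold WT mean stood clear of its neighbour in these orders. The neighbours among the other 3 means differed by less than the larger of their SDs, the widest step being 0.58 between sid2-1 and WT at 22 °C for AT3G47480, beside an SD of 0.28 in sid2-1 and 0.82 in WT.

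The first comparison concerns sid2-1 against WT after 3 weeks at 4 °C, the contrast in which genotype is the labelled difference between cold plants. AT5G39670 was lower by a log2 difference of -3.58 ± 0.27 (SE), 11.9-fold, with a 95% interval of -4.20 to -2.95. AT3G01830 differed by -3.39 ± 0.17 (SE), 10.5-fold, and AT3G47480 by -3.68 ± 0.63 (SE), 12.8-fold, with an interval of -5.13 to -2.24. By absolute size these differences held ranks 36, 44 and 32 of the 22746 probe sets. Between same-numbered arrays the sid2-1 minus WT difference was -3.42, -3.77 and -3.54 for AT5G39670 and -3.76, -3.29 and -3.13 for AT3G01830. It was -4.53, -3.25 and -3.27 for AT3G47480, so that every pair went the same way for each gene.

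All 3 genes passed limma's threshold at 4 °C, where 0.615% of all probe sets were called and 0.602% called lower in sid2-1, and all 3 had groups that did not overlap, as did 6.09% of all probe sets in that direction. Since this contrast chose the genes, nothing is read from these counts. With the replicate number as a block within each temperature, 27 probe sets were called instead of 140 and AT3G47480 was not among them. A fit of the 2 cold groups alone called 0 probe sets in limma, where 1504 had an unadjusted p under 0.05. AT3G47480 was called in 2 of 12 fits that left out 1 array, and its difference was -4.30 without sid2-1 replicate 2 at 4 °C and -3.29 without WT replicate 2 at 4 °C.

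The cold response of wild type gave the same 3 genes differences of similar size in the other direction. AT5G39670 was higher at 4 °C by 3.70 ± 0.27 on the log2 scale (SE), 13.0-fold. AT3G01830 was higher by 3.18 ± 0.17 (SE), 9.08-fold, and AT3G47480 by 3.81 ± 0.63 (SE), 14.0-fold with a 95% interval of 2.36 to 5.25. All 3 were past the threshold, as were 13.0% of all probe sets, 6.81% with higher and 6.19% with lower values in the cold, and all 3 had groups that did not overlap, as did 14.3% of all probe sets with higher values in the cold. The contrast shares its cold WT arrays with the comparison above and also chose the genes, so nothing is read from these counts. WT replicate 2 at 22 °C had the highest value of its group for all 3 genes, and without it the cold response was 3.86, 3.33 and 4.28 for AT5G39670, AT3G01830 and AT3G47480.

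The cold response of sid2-1 is given as a description too, since genes taken for low values in the cold mutant are by that choice genes with a small response there. AT5G39670 differed by 0.27 ± 0.27 (SE), with a 95% interval of -0.35 to 0.90 that allows a rise of up to 1.86-fold. AT3G01830 differed by 0.00 ± 0.17 (SE), with an interval of -0.40 to 0.39 that allows up to 1.31-fold. The sid2-1 arrays of this gene lay 0.68 to 0.93 above the lowest value of the table, so this bound depends on the background correction. AT3G47480 differed by 0.70 ± 0.63 (SE), and its interval of -0.74 to 2.14 allows a rise of up to 4.42-fold. The groups of each gene overlapped. Single arrays moved the value of AT3G47480, which was 0.09 without sid2-1 replicate 2 at 4 °C and 1.23 without sid2-1 replicate 1 at 4 °C, while that of AT5G39670 was 0.09 when the second mutant array at 22 °C was left out and 0.52 when the first was.

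At 22 °C the genotypes were compared without cold. These arrays also enter the contrasts that chose the genes, a choice that favours low WT values here, so nothing is read from a lack of calls. AT3G01830 lay 0.68 to 1.3 above the lowest value of the table on these arrays. AT3G47480 lay 0.73 to 1.22 above it in sid2-1, so the differences of both genes depend on the background correction. None of the 3 genes passed limma's test or had an unadjusted p under 0.05, where 0.0044% of all probe sets passed the test and 3.03% had such a p. AT5G39670 differed by -0.15 ± 0.27 (SE, limma adjusted p = 1.0), with an interval of -0.77 to 0.48, and AT3G01830 by -0.21 ± 0.17 (SE, limma adjusted p = 1.0), with an interval of -0.60 to 0.19. AT3G47480 differed by -0.58 ± 0.63 (SE, limma adjusted p = 1.0), with an interval of -2.02 to 0.87. Between same-numbered arrays, sid2-1 minus WT was 0.07, -1.85 and 0.05 for AT3G47480, and without WT replicate 2 at 22 °C the difference was -0.10. It was 0.34, -0.82 and 0.04 for AT5G39670 and -0.02, -0.51 and -0.09 for AT3G01830, so that in each gene the number 2 pair held the lowest difference.

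The difference of the cold responses, sid2-1 minus WT, was -3.43 ± 0.39 for AT5G39670, -3.19 ± 0.25 for AT3G01830 and -3.11 ± 0.90 for AT3G47480 (SE). AT5G39670 and AT3G01830 passed the threshold, as did 0.0615% of all probe sets, 0.0572% with the negative sign, and AT3G47480, with a 95% interval of -5.15 to -1.07, did not. The genes were chosen with this contrast in view, so nothing is read from these calls. With a replicate block within each temperature limma called 0 probe sets in this contrast, against 14 without the block, while 1401 had an unadjusted p under 0.05.

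**Figure D2:**
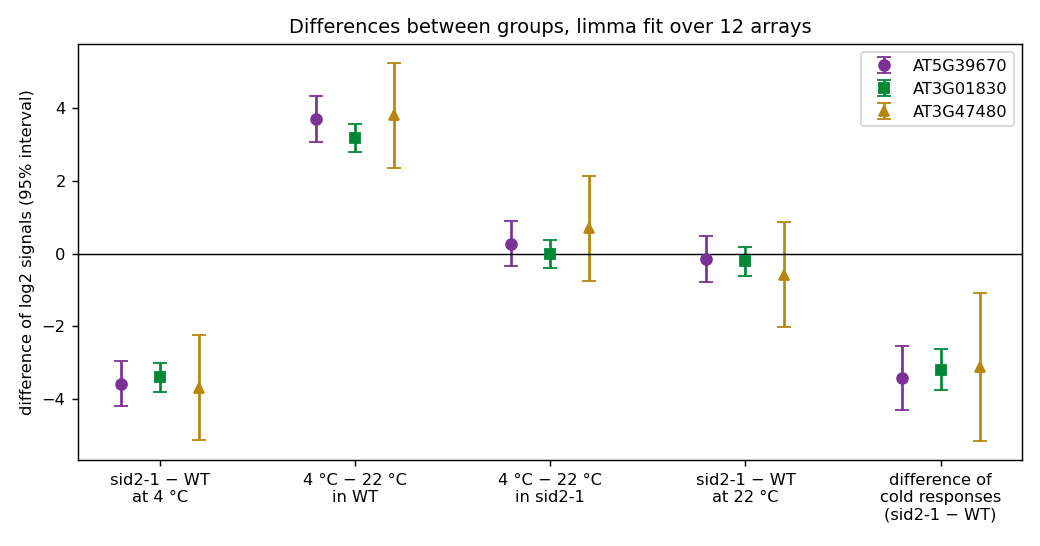
Difference of log2 signals (vertical axis) in 5 comparisons for AT5G39670 (circles), AT3G01830 (squares) and AT3G47480 (triangles), with 95% intervals from the limma fit over 12 arrays. The differences lie between -3.68 and -3.39 for sid2-1 against WT at 4 °C and between 3.18 and 3.81 for the cold response of WT, while the intervals of the cold response of sid2-1 and of the genotypes at 22 °C include 0.

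Of 47 further loci of the calmodulin-like family, listed by locus and not by how they moved, 32 had a probe set of their own, and 19 of these had no group mean of 4 or more. In WT, 6 of the 32 were called higher in the cold and 0 lower, beside 6.81% and 6.19% of all probe sets. An unadjusted p under 0.05 in limma was also held by 6 of the 32, beside 25.8% of all probe sets. The median difference was 0.04, against 0.00 over all probe sets. The range over the 32 was -0.85 to 3.04.

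CML41, known for closing plasmodesmata in the response to bacterial flagellin, rose most of the family in WT, by 3.04 ± 0.57 (SE, limma adjusted p = 0.0106). Its signal was 4.41, 7.1 and 5.18 in WT at 4 °C, against 2.47, 2.63 and 2.47 in WT at 22 °C. CML37, known from responses to wounding and insect feeding, rose by 1.57 ± 0.22 (SE, limma adjusted p = 0.00282). It gave 4.11, 4.25 and 3.25 in WT at 4 °C, against 2.25, 2.32 and 2.33 at 22 °C. Both genes were near the lowest value at 22 °C, so that their folds depend on the background correction.

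The other family members called higher in cold WT had signals of 5.63 or more on every array. AT1G18210 rose 3.22-fold (log2 difference 1.69 ± 0.26, SE, limma adjusted p = 0.00484), with 9.67, 9.91 and 9.73 in WT at 4 °C against 7.58, 8.47 and 8.2 at 22 °C. AT3G25600 rose 2.93-fold (1.55 ± 0.39, SE, limma adjusted p = 0.0324), but was not called when any 1 of 5 WT arrays was left out. AT5G04170 rose by 1.19 and AT3G10300 by 1.05 on the log2 scale.

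In sid2-1, none of the 32 family genes passed limma's test for the cold response, and 5 had an unadjusted p under 0.05, beside 6.28% and 20.6% of all probe sets. AT1G18210 gave 8.9, 9.53 and 9.34 in sid2-1 at 4 °C, against 7.81, 8.41 and 8.39 at 22 °C. Its difference of 1.05 ± 0.26 (SE, limma adjusted p = 0.052) was nearest the threshold, followed by AT3G10300 with 1.05 ± 0.29 (SE, limma adjusted p = 0.0695). CML41 gave 2.47, 3.18 and 2.48 in sid2-1 at 4 °C, against 2.47, 2.48 and 2.48 at 22 °C. These values placed all but 1 cold mutant array of CML41 within 0.01 of the warm ones.

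Between the genotypes at 4 °C, CML37 was the single family gene called, lower in sid2-1 with a log2 difference of -1.53 ± 0.22 (SE, limma adjusted p = 0.0204), beside 0.602% of all probe sets called lower. It gave 2.42, 2.28 and 2.31 in sid2-1, against 4.11, 4.25 and 3.25 in WT. It was not called with a replicate block within each temperature (limma adjusted p = 0.0995), nor without any 1 of sid2-1 replicates 1, 2 and 3 at 4 °C, WT replicate 1 at 4 °C or sid2-1 replicate 3 at 22 °C (limma adjusted p between 0.0514 and 0.0668). CML41 had the largest family difference, -2.85 ± 0.57 (SE, limma adjusted p = 0.0868), and did not pass. The family median was -0.02, against 0.00 over all probe sets, and 6 of the 32 had an unadjusted p under 0.05 in limma, beside 9.83%. No family gene was called at 22 °C, where 2 had an unadjusted p under 0.05 beside 3.03% of all probe sets, nor for the difference of the cold responses, where 4 did, as did 4.08% of all probe sets. At 22 °C, CML23 was nearest the threshold with 0.90 ± 0.33 (SE, limma adjusted p = 1.0), and for the difference of the responses it was CML37 with -1.54 ± 0.31 (SE, limma adjusted p = 0.266).

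**Figure D3:**
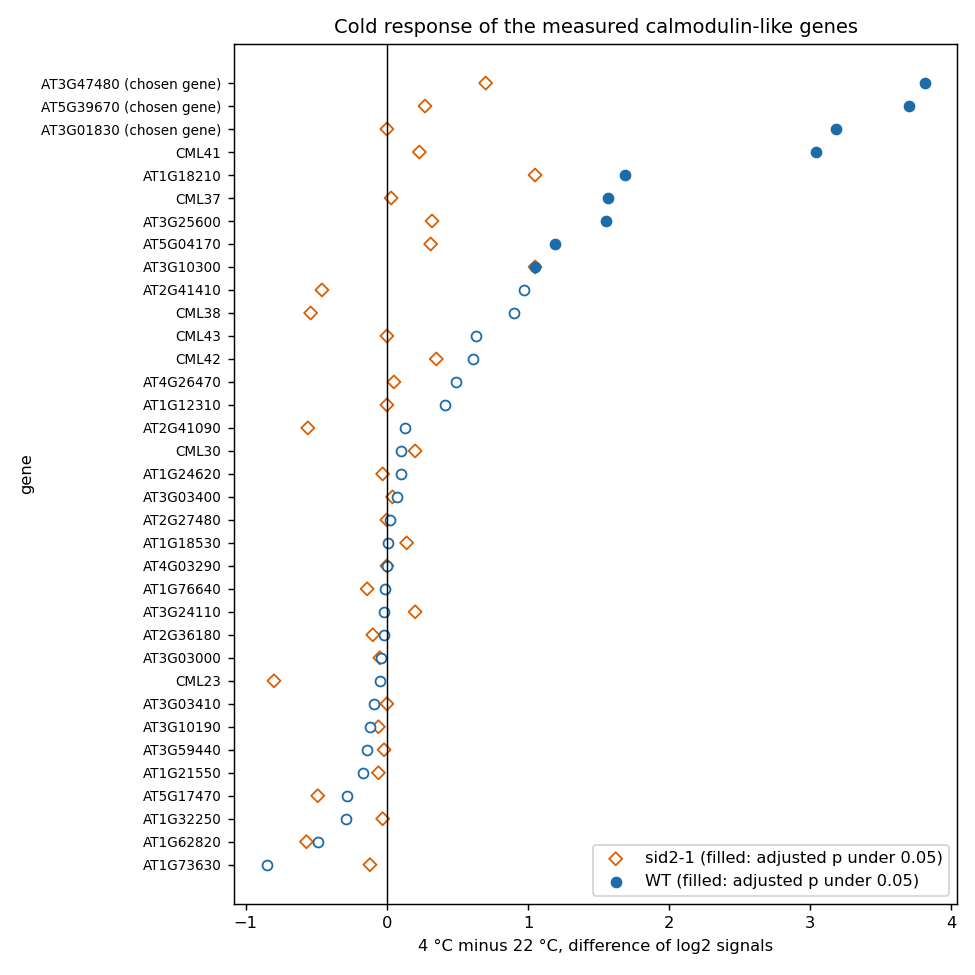
Cold response (difference of log2 signals, 4 °C minus 22 °C, horizontal axis) of the 32 measured family genes and the 3 chosen genes, ordered by the response of WT; diamonds show sid2-1, circles WT, and filled symbols an adjusted p under 0.05 in limma. In WT the 9 filled circles run from 1.05 for AT3G10300 to 3.81 for AT3G47480, and no diamond is filled.

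Of the other parts of calcium signalling listed by locus, none of the 7 calmodulins, 34 calcium-dependent protein kinases, 36 calcineurin B-like sensors and their kinases, 23 channels and 16 pumps and exchangers had a probe set of their own in the annotation used, and they were not analysed here. Of 14 calmodulin-binding transcription regulators, 8 had a probe set of their own in that annotation, and the rest were not analysed here. None of the 8 passed limma's test in any comparison, and few had an unadjusted p under 0.05. The count was 1 between the genotypes at 4 °C, beside 9.83% of all probe sets, 1 in the cold response of WT, beside 25.8%, and 2 in that of sid2-1, beside 20.6%. It was 0 at 22 °C, beside 3.03%, and 1 for the difference of the responses, beside 4.08%. AT5G57580 was nearest the threshold between the genotypes at 4 °C, with 5.65, 5.88 and 6.4 in sid2-1 against 6.63, 7.11 and 6.33 in WT, a difference of -0.71 ± 0.27 (SE, limma adjusted p = 0.43).

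Of 32 genes of salicylic acid synthesis and signalling, 6 had a probe set of their own in the annotation used, and the rest were not analysed here. In WT 3 of them were called higher in the cold, beside 6.81% of all probe sets. The median was 0.87 over the 6, against 0.00 over all probe sets. WRKY53, a transcription factor of senescence and defence, rose by 3.51 ± 0.65 (SE, limma adjusted p = 0.0104), and SAG101, a partner of the immune regulator EDS1, by 1.13 ± 0.26 (SE, limma adjusted p = 0.0225). The call of SAG101 was lost without WT replicate 1 or 3 at 22 °C or WT replicate 2 at 4 °C (limma adjusted p between 0.0595 and 0.0758). UGT76B1, which attaches glucose to salicylic acid, stood at the lowest value of 2.2 on all 9 arrays outside cold WT and at 2.61, 3.02 and 2.81 in cold WT. With no spread in 3 of the 4 groups and no array far above that value, its differences, SEs and p-values depend on the background correction. It rose in WT (0.61 ± 0.08, SE, limma adjusted p = 0.00248) and was the 1 gene of the 6 called lower in sid2-1 at 4 °C (-0.61 ± 0.08, SE, limma adjusted p = 0.015), beside 0.602% of all probe sets, a call lost with a replicate block within each temperature (limma adjusted p = 0.0941) and without sid2-1 replicate 1 at 4 °C (limma adjusted p = 0.0599). None of the 6 was called in the cold response of sid2-1, beside 6.28% of all probe sets, or at 22 °C, beside 0.0044%. Unadjusted p-values under 0.05 in limma numbered 1 in the cold response of sid2-1, beside 20.6%, and 0 at 22 °C, beside 3.03%. They numbered 4 between genotypes at 4 °C, beside 9.83%, and 4 in the cold response of WT, beside 25.8%. For the difference of responses they numbered 3, beside 4.08%. Between genotypes at 4 °C the median of the 6 differences was -0.61, against 0.00 over all probe sets. WRKY53 differed there by -3.65 and was not called.

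The genes most like each of the 3 were sought among 6966 genes with a probe set of their own and a group mean of 4 or more. Likeness was the root mean square difference over the 12 arrays between profiles centred on their own means. The 9310 tested probe sets without a gene of their own in the annotation used were not ranked, so nearer profiles among them would be missed. The profiles are dominated by the step of the cold WT group, for which the 3 genes were chosen, so their nearness to one another restates that choice. AT3G01830, AT3G47480, AT5G52760, AT2G20142, AT1G57630, AT5G44570, MSRB9, AT4G39670 and WRKY53 reach a group mean of 4 in cold WT alone. The nearest gene to AT5G39670 was AT5G52760 at 0.374 log2 units, followed by AT3G01830 itself at 0.391, AT2G20142 at 0.435, AT1G57630 at 0.510 and AT5G44570 at 0.514. AT3G01830 was closest to AT5G52760 at 0.217, and then to the methionine sulfoxide reductase gene MSRB9 at 0.356, AT5G44570 at 0.389, AT5G39670 at 0.391 and AT2G20142 at 0.407.

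AT3G47480 had other neighbours. AT4G39670 was nearest at 0.481, followed by AT1G78410 at 0.502, WRKY53 at 0.526, AT3G18250 at 0.557 and AT5G52760 at 0.610, while AT5G39670 came at rank 6 with 0.612 and AT3G01830 at rank 12 with 0.725. In AT3G47480 and all 5 of these neighbours, sid2-1 replicate 2 was the highest of the cold mutant arrays, a feature that the choice by distance favours. WRKY53 gave 2.89, 4.91 and 3.47 in sid2-1 at 4 °C, against 6.89, 8.56 and 6.78 in WT. AT4G39670 gave 2.73, 4.32 and 3.55 in sid2-1 at 4 °C, against 7.26, 7.59 and 6.31 in WT. For AT5G39670 the highest cold mutant array was replicate 3, at 4.97, and for AT3G01830 the cold mutant arrays lay within 0.02 of each other.

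AT5G52760 was among the 5 nearest of all 3 genes. It gave 3.45, 3.52 and 3.45 in sid2-1 at 4 °C, against 7.09, 7.45 and 6.46 in WT at 4 °C. At 22 °C it gave 3.52, 3.45 and 3.46 in sid2-1, against 3.45, 4.15 and 3.4 in WT, where replicate 2 was highest as it was for the 3 calmodulin-like genes.

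**Figure D4:**
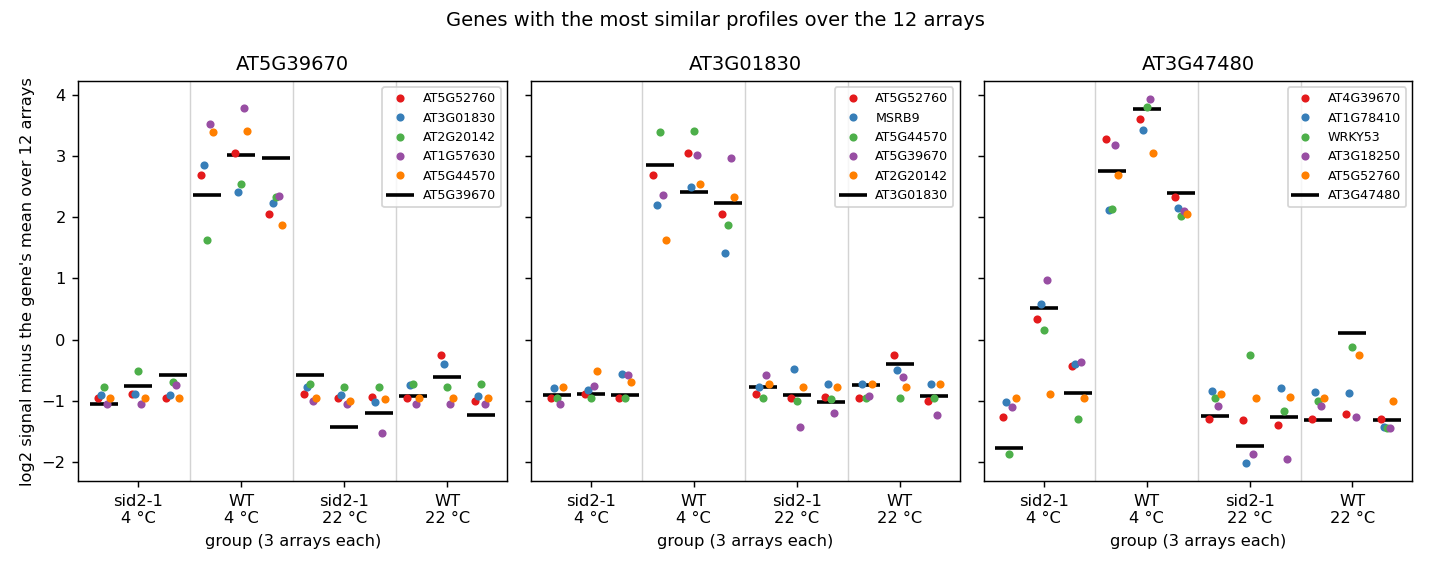
Log2 signal minus the gene's own mean over the 12 arrays (vertical axis) on each array, with 3 arrays (replicates 1 to 3) per group; black bars show the calmodulin-like gene of the panel and coloured points its 5 nearest genes. In all panels the cold WT arrays stand above the rest, and in the panel of AT3G47480, sid2-1 replicate 2 at 4 °C (5.18) stands above the other cold mutant arrays (2.89 and 3.79).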

How the data were processed

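Values were the deposited log2 signals of 12 Affymetrix arrays, made by the authors with GCRMA, which corrects background from probe sequence, quantile-normalizes and summarises probe sets (GCRMA and limma are named, without versions, per the submitters' processing notes). The arrays normalized together are not given in the sources used here. Precision is limited by how many arrays there are. Of 22810 probe sets, 64 controls were left out. The platform table gave 13513 probe sets 1 gene and 503 several, and 13436 of those with 1 gene matched the RefSeq gene table by Entrez number. This match left 9310 tested probe sets without a gene of their own. Genes called measured above are those with a probe set of their own in it. Coordinates are not printed, since the arrays name no genome build, and sequences were not used here.

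The model was fitted in limma 3.58.1 under R 4.3.3 (lmFit, contrasts.fit, eBayes; 1 mean per group over all 12 arrays, 8 residual and 0.609 prior degrees of freedom). The p-values were adjusted by Benjamini-Hochberg over 22746 probe sets, and a value under 0.05 counted as called. The fit was tested on simulated data. Python 3.11.15 and matplotlib 3.10.9 made tables and plots. Same-numbered arrays deviated together between genotypes at 4 °C (correlations of deviations from the group means of 0.211 to 0.252) and at 22 °C (0.283 to 0.467), so the replicate block within each temperature is given there. Named genes were the 3 chosen, at most 4 called members of a list per comparison (or up to 2 nearest the threshold), and the 5 nearest genes by profile. AT5G04170 and AT3G10300 are also named as called family members, and CML41 between genotypes and in sid2-1, after their values were seen. The genes and lists were chosen with earlier results of these data known. The alternatives were replicate blocks, fits of 2 groups, a filter on probe sets with a mean under 4, moderation with trend, array weights, median centring and leaving out each array.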

Additional observations from a re-analysis of the deposited data

Results flagged for a closer look

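AT5G39670 and AT3G01830 are listed because the test of the difference between the cold responses passed its threshold. The response of sid2-1 minus that of WT was -3.43 for AT5G39670 and -3.19 for AT3G01830, from responses of 0.27 and 0.00 in sid2-1 and 3.70 and 3.18 in WT. These genes were chosen with this contrast in view, so the values describe the choice. The call of AT3G01830 held in 11 of 12 fits that left out 1 array, the exception being that without WT replicate 1 at 22 °C, and that of AT5G39670 in 4 of 12. With a replicate block within each temperature neither was called, and with a plain replicate block AT3G01830 alone was. With 3 arrays per group, no group was searched for single outlying arrays.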

How the results depend on the processing

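The differences of the 3 chosen genes kept their sign in every alternative for the genotypes at 4 °C (-3.78 to -3.39 for AT5G39670, -3.54 to -3.21 for AT3G01830, -4.30 to -3.15 for AT3G47480), and for the cold response of WT (3.52 to 3.91, 3.00 to 3.33 and 3.41 to 4.28). The filter on dim probe sets left AT3G01830 untested. At 22 °C none of the 3 was called in any alternative.

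The counts of called probe sets moved more. Between genotypes at 4 °C the count of 140 was 27 with a replicate block within each temperature, 0 in a fit of the 2 groups alone (1504 at an unadjusted p under 0.05), which called none of the 3 genes, and 211 with dim probe sets filtered out. Leaving out 1 array gave 84 (sid2-1 replicate 1 at 4 °C) to 281 (WT replicate 3 at 4 °C), and 86 without sid2-1 replicate 3 at 22 °C. For the cold response of WT, 2956 became 1407 in a fit of 2 groups, and 1865 (without WT replicate 2 at 4 °C) to 2859 with 1 array left out, with 1888 without WT replicate 3 at 22 °C. For that of sid2-1, 1428 became 376 in a fit of 2 groups and 2244 with the dim filter, and 788 (without sid2-1 replicate 1 at 22 °C) to 1457 with 1 array left out. At 22 °C, limma's count of 1 became 0 with a replicate block, 0 with the block within each temperature, 2 in a fit of 2 groups, 0 with the dim filter and 0 with median centring, and 0 to 20 with 1 array left out, where 20 was without WT replicate 3 at 22 °C. The count of 14 for the difference of responses became 3 with a replicate block, 0 with the block within each temperature and 30 with the dim filter. It ranged from 0 (without WT replicate 1 at 22 °C) to 70 (without WT replicate 3 at 4 °C), was 46 without WT replicate 2 at 4 °C, and was 6, 6 and 3 without sid2-1 replicates 1, 2 and 3 at 22 °C.

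Same-numbered arrays of the cold contrasts had correlations of deviations of 0.000 to 0.244 in WT and 0.031 to 0.179 in sid2-1. The highest, for number 2 in WT, lies within the range between genotypes at 4 °C (0.211 to 0.252). The labels do not say whether arrays of the same number belong together. With the replicate block, AT1G18210 (limma adjusted p = 0.00608) and AT3G10300 (limma adjusted p = 0.0439) were called in the cold response of sid2-1. In all, 7 alternatives called 1 or 2 of the 32 family genes there. Without sid2-1 replicate 1 at 22 °C, the 1 gene called was lower in the cold. A block within temperature was not run for the cold responses, whose groups lie in different temperatures. In a fit of the 2 WT groups alone, limma called 2 family genes and 0 salicylic acid genes, with CML41 at an adjusted p of 0.1, CML37 at 0.058, AT3G25600 at 0.0712, WRKY53 at 0.0571, SAG101 at 0.0712 and UGT76B1 at 0.0547. Why the counts moved was not tested.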
